A study of Mus musculus with 12 samples.

Results

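Secreted signals of 4 families and their relatives were examined for 5-hydroxymethylcytosine (5hmC), the oxidised form of 5-methylcytosine made by Tet enzymes. The genes were those whose symbol begins with Fgf, Wnt, Bmp, Tgfb or Gdf followed by a member number. This rule was met by 55 of the 13581 genes in the tables: 18 Fgf, 19 Wnt, 8 Bmp, 3 Tgfb and 7 Gdf genes. The rule reads only symbols. A few of the 55 are not classical ligands, since Bmp1 encodes a metalloprotease that processes procollagen, and Fgf11, Fgf12, Fgf13 and Fgf14 encode proteins that stay inside the cell. Fgf21, Gdf1 and Gdf6 were not analysed here.

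Fibroblast growth factors bind receptor tyrosine kinases, WNT proteins bind Frizzled receptors with Lrp co-receptors, and the BMP, GDF and TGFB proteins bind paired serine/threonine kinase receptors that phosphorylate SMAD proteins. In the embryo these signals set the germ layers and pattern the heart and liver, and many of their genes stay silent in a given adult tissue. CpG-rich promoters of such developmental genes are known in embryonic stem cells for carrying Polycomb marks and for Tet1 binding, whereas 5hmC over gene bodies is known to be rich in genes that a tissue transcribes.

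The study tagged 5hmC in sheared genomic DNA with an azide-bearing glucose, coupled biotin to the tag, pulled the fragments down and sequenced them. The comparisons ask how the mark differs between stem cells and tissues, between heart and liver, and between ages. A level is the FPKM (fragments scaled by region length and library size) that the authors gave for a gene's body and for a promoter window of 4000 bp, so it is relative to other regions and is not a share of cytosines. Embryonic stem cells (ESC, 2 libraries) were the EB5 line of the 129/Ola strain, a single line grown with LIF and labelled day3. Heart and liver were whole tissues of C57BL6/j mice at embryonic day 14 (E14, 1 library each), neonatal day 1 to 2 (P1, 2 each) and 8 weeks (W8, 2 each). No group is labelled with a mutation or a drug. The labels do not say whether replicates are separate animals, pools or cultures, so p-values measure only the spread between these libraries. Strain and culture go with ESC against tissue, and read format goes with age (75 bp from both ends in ESC and P1, 50 bp from 1 end in E14 and W8), so these cannot be told apart from the groups. In whole tissue, fewer cells carrying the mark and less mark per cell cannot be told apart either.

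Reads recovered from the steps between low values came to 953679 to 15527562 per library in 11 libraries and to 326119 in W8 heart replicate 2. In that library the median ligand body held 3.01 reads, and 14 of the 55 ligand bodies and 29 of the 55 ligand promoter windows were at 0. Over the bodies of all genes, replicates of W8 heart correlated at r = 0.506 against 0.788 to 0.969 in the other groups. Over promoter windows r was 0.291 in W8 heart, 0.482 in P1 heart, 0.643 in P1 liver, 0.750 in ESC and 0.889 in W8 liver. W8 heart replicate 2 widens the spread that all comparisons share, so the counts of ligands called are given with and without it. Marker genes followed the labels for tissues: the summed body FPKM of 10 cardiomyocyte genes was 15.6 to 36.7 in heart and 4.88 to 7.97 in liver, and that of 11 hepatocyte genes was 16.6 to 20.3 in P1 and W8 liver and 3.87 to 10.4 in heart. E14 liver stood at 6.36 for the hepatocyte genes. For 6 pluripotency genes the sum was 6.52 to 6.83 in ESC and 5.89 to 6.69 in P1 heart, and Pou5f1 was at 0 in ESC replicate 1, so these genes did not set ESC apart from P1 heart by much.

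All 55 genes matched RefSeq by accession. Their bodies, which hold exons and introns, had a median length of 18065 bp, against 25109 bp for all genes, and ran from 1063 bp in Gdf15 to 697221 bp in Fgf14. Compared with RefSeq gene lengths, the bodies lack a median of 2027 bp, so the promoter window, which ends where the body begins, appears to span about 2000 bp on either side of the start site for most genes. Some of the genes lie next to each other, with gaps counted between spans of body plus promoter window. They include Wnt3a and Wnt9a (gap 12.2 kb), Wnt9b and Wnt3 (20.3 kb), Wnt10b and Wnt1 (7.71 kb), Wnt6 and Wnt10a (4.2 kb) and Fgf6 and Fgf23 (46.2 kb). These pairs are not independent observations. The bodies or windows of 9 ligands overlap another gene (Fgf1, Fgf7, Fgf11, Fgf17, Bmp1, Bmp6, Tgfb1, Tgfb3 and Wnt5b), and their reads cannot be assigned to 1 gene.

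The results for stem cells turn on WNT promoters, and their sequences are therefore shown first. RefSeq (GRCm38.p6) holds a promoter entry for 39 of the 55 genes, 34 of them with exactly 1. The stretches are the 250 bases before the start site, 5′ to 3′ on the gene's strand, with each CpG (the letters CG, the site of the mark, the same on both strands) in capitals. Wnt3 lies at chr11:103773925-103774174 on the plus strand, Wnt3a at chr11:59290752-59291001, Wnt7a at chr6:91411354-91411603 and Wnt2 at chr6:18030446-18030695, all 3 on the minus strand. Wnt10b lies at chr15:98778151-98778400 on the minus strand. These are the 5 WNT genes with a single entry whose windows differed most between ESC and a newborn tissue. Bmp15, a growth factor of the oocyte, at chrX:6320725-6320974 on the minus strand, has the fewest CpG sites of the 34 and is shown for contrast.
Wnt3: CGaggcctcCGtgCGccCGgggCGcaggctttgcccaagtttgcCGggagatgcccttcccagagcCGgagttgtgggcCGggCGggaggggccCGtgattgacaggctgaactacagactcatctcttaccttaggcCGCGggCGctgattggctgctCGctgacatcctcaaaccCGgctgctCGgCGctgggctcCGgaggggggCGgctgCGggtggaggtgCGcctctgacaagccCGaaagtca
Wnt3a: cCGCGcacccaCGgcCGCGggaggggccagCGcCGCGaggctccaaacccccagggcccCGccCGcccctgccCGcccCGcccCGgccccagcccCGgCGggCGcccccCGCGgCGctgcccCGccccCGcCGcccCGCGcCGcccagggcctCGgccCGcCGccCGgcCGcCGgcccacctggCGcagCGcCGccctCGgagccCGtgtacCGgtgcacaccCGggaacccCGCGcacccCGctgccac
Wnt7a: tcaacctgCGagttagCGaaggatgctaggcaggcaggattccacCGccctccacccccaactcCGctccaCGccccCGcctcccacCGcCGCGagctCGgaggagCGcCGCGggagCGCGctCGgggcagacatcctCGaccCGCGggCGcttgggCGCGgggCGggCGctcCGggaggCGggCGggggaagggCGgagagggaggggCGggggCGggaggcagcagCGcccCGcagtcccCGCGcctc
Wnt2: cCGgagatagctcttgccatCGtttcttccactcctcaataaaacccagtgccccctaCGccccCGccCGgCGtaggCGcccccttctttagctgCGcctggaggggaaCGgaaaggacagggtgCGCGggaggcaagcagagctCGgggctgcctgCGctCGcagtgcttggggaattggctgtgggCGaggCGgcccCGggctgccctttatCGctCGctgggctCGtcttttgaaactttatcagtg
Wnt10b: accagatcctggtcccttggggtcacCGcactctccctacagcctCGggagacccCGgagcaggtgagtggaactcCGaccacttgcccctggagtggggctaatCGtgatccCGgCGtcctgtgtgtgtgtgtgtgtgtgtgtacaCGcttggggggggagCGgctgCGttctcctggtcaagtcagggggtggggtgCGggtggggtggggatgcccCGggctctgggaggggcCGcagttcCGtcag
Bmp15: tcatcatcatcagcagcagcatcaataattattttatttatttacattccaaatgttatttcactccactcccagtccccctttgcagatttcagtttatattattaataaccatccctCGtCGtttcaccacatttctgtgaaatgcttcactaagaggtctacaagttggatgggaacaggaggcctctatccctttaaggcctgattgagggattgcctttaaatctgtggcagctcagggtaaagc

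These 250 bases hold 22 CpG sites in Wnt3, 41 in Wnt3a, 34 in Wnt7a, 20 in Wnt2, 14 in Wnt10b and 2 in Bmp15. The median was 23 over the 13 WNT genes with 1 entry, 9 over 11 Fgf genes and 4 over 5 Bmp genes. It was 20 over all 34 ligands, 15 over the 7689 genes of the tables with 1 entry and 6 over all 32851 RefSeq promoters. At least 15 sites stood in 10 of the 13 WNT stretches, in 52.9% of the 34 ligands, in 50.6% of the 7689 genes and in 27.3% of all RefSeq promoters. WNT promoters were thus CpG-rich, while the ligands as a group held that many sites about as often as the other genes.

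In ESC the WNT promoter windows carried more 5hmC than most genes. The median WNT window held 1.61 and 1.39 FPKM in the 2 ESC libraries, where the median of all genes was 0.744 and 0.631, and 18 and 19 of the 19 WNT windows lay above that median. In the tissues the median WNT window lay below the median of all genes, with medians of 0.589 and 0.461 for newborn heart, 0.786 and 0.421 for newborn liver and 0.251 and 0.277 in W8 liver, where all genes stood at 0.673 and 0.682. The Fgf windows showed less of this in ESC, at 0.806 and 0.757 FPKM, and were at 0.17 and 0.169 in W8 liver. Gdf windows, the family with oocyte and bone factors, kept medians of 0.463 to 1.18 in all 12 libraries.

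**Figure D1:**
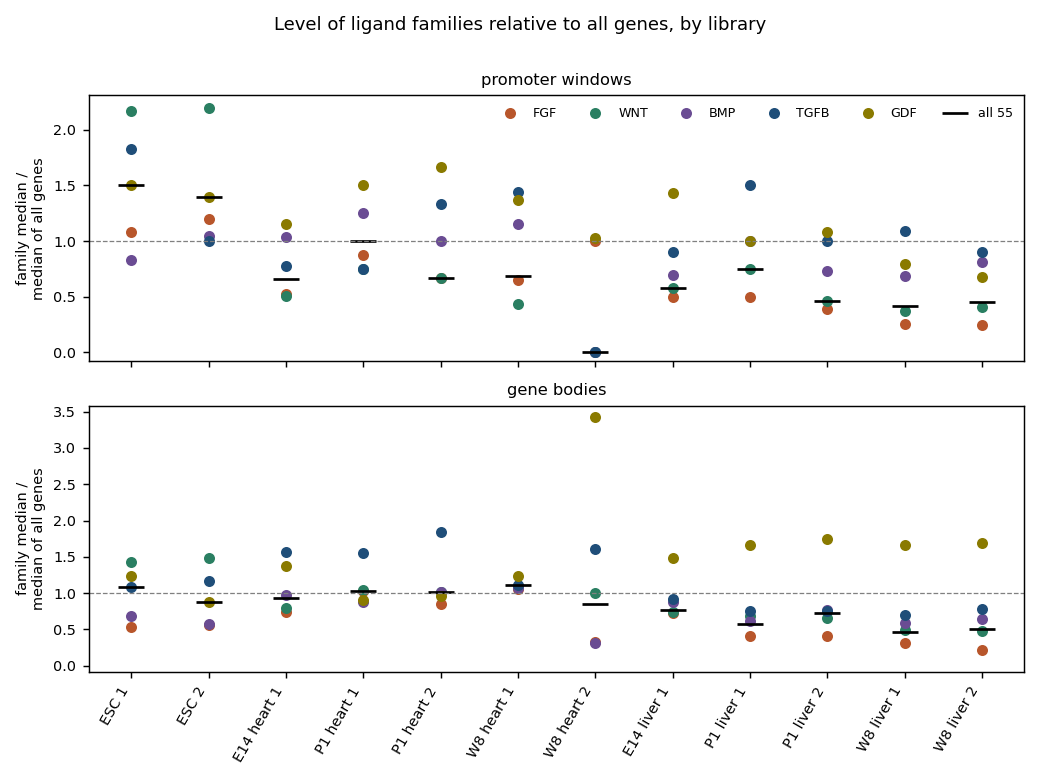
Median FPKM of each ligand family divided by the median FPKM of all genes, for promoter windows (top) and gene bodies (bottom), in each of the 12 libraries; points are families, black bars are all 55 genes, and the dashed line marks the level of all genes. WNT promoter windows stand at 2.17 and 2.2 times all genes in ESC and at 0.373 and 0.407 times in W8 liver; in W8 heart replicate 2, 29 of the 55 ligand windows have no read.

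Comparing the libraries directly, 17 of the 55 promoter windows (30.9%) were higher in both ESC libraries than in each of the 10 tissue libraries, against 10.4% of all genes. Of these 10 were WNT genes (Wnt1, Wnt2, Wnt2b, Wnt3, Wnt3a, Wnt7a, Wnt7b, Wnt10a, Wnt10b and Wnt11), 6 were Fgf genes (Fgf4, Fgf5, Fgf8, Fgf13, Fgf14 and Fgf15) and 1 was Gdf5, a factor of joint formation. Leaving out W8 heart replicate 2 gave 22 (40%, against 12.2% of all genes). Only Gdf3 and Gdf9 lay below every tissue library (3.64%, against 6.42% of all genes). No Bmp or Tgfb window was separated in either direction.

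Wnt3, which is needed for the primitive streak, showed the widest gap. Its window held 2.85 and 3.34 FPKM in the ESC libraries. Newborn heart had 0 and 0.231, newborn liver 0 and 0.351, and the E14 heart and liver libraries 0.0951 and 0.401. In W8 heart both libraries were at 0, and W8 liver had 0.0571 and 0.0625. ESC thus lay far above every tissue library, on 76 reads against 1 in P1 heart and 5 in P1 liver. The ESC level was 30 times that of P1 heart (95% exact counting interval 5.22 to 1200) and 11.5 times that of P1 liver (4.71 to 36.3). Reads carry no molecular identifiers, so such intervals cover counting error only.

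Wnt3a, which maintains stem cell and axial progenitor states, had 0.992 and 0.82 FPKM in its window in ESC, where newborn heart had 0.196 and 0.231 and newborn liver 0 and 0.0702. Both ESC libraries were above all tissue libraries, of which E14 liver was the highest at 0.435. Wnt10b, a factor of bone and mammary gland, had 2.11 and 2.21 in ESC, against 0.196 and 0 in newborn heart and 0.786 and 0.421 in newborn liver. Wnt11, a noncanonical ligand with a role in heart development, had 1.24 and 0.883 in ESC, 0 in both P1 heart libraries and 0.262 and 0.14 in P1 liver. Against a floor of 3 reads over the group, the Wnt11 window was at least 3.15-fold lower in P1 heart than in ESC.

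Wnt2, made by mesenchyme and by endothelium of the liver, had 2.73 and 2.33 FPKM in ESC, against 0.785 and 0.461 in newborn heart and 0 and 0.492 in newborn liver. Its ESC level was 6.36 times that of P1 liver (95% exact counting interval 2.9 to 16.5). Wnt7a had 1.36 and 1.26 in ESC and 0 and 0.281 in P1 liver, and Wnt7b, a lung and kidney ligand, had 1.24 and 1.45 in ESC and 0 and 0.0702 in P1 liver. In each of these 3 genes P1 liver lay below ESC without overlap.

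Gdf3, a Nodal-like factor of pluripotent cells, and Gdf9, which the oocyte secretes, went the other way. The Gdf9 window held 0.372 and 0.252 FPKM in ESC, where newborn heart had 1.37 and 1.84 and newborn liver 1.31 and 0.983. The Gdf3 window held 0.248 and 0.442 in ESC, where newborn heart had 1.18 and 0.692 and newborn liver 1.05 and 1.83. All tissue libraries were above ESC for both genes.

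**Figure D2:**
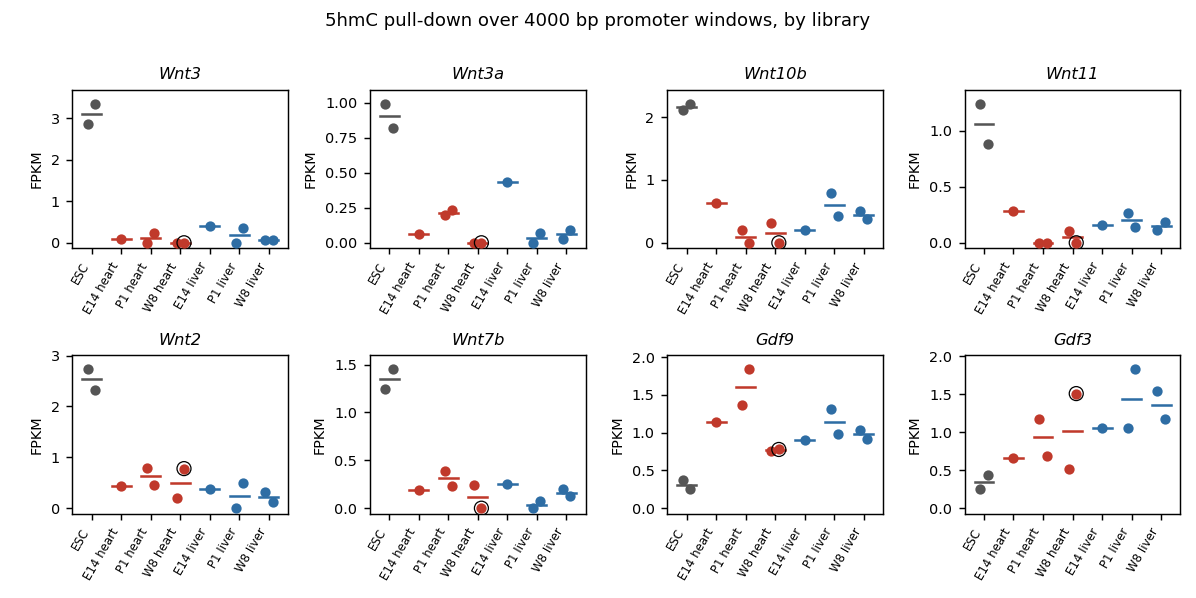
FPKM of the promoter window in each library (points) and group mean (bars) for 8 ligand genes, with ESC in grey, heart in red and liver in blue; the ringed point is the shallow W8 heart replicate 2. Wnt3 stands at 2.85 and 3.34 in ESC and at no more than 0.401 in any tissue library, whereas Gdf9 and Gdf3 are lowest in ESC.

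With few reads per window the tests across all genes had little power. With all libraries limma called 0 of the 55 windows in P1 heart against ESC (12 at an unadjusted p under 0.05; 0.074% of all genes called, 0.0296% higher and 0.0444% lower) and 0 in P1 liver against ESC (11 at an unadjusted p under 0.05; 0.163% of all genes called). The median log2 difference was -0.74 over the ligands and -0.02 over all genes in heart, and -1.01 and 0.44 in liver. These 2 comparisons share the ESC libraries. The smallest adjusted p in limma was 0.0963 for Wnt11 in heart (log2 difference -3.95 ± 0.88 SE) and 0.0821 for Wnt3 in liver (-4.17 ± 1.04), so neither passed. Without W8 heart replicate 2, 4 windows passed in P1 heart against ESC (5.71% of all genes): Wnt3 (-4.42), Wnt10b (-4.00) and Wnt11 (-3.95) were lower and Gdf9 (2.13) was higher. In P1 liver against ESC 8 passed (15.6% of all genes), with Wnt3 (-4.17), Wnt7b (-3.80), Wnt2 (-3.68), Wnt3a (-3.26), Wnt7a (-3.11) and Gdf5 (-2.12) lower and Gdf3 (1.85) and Gdf9 (1.67) higher. Without W8 heart replicate 1 the counts were 6 and 8, and without any other single library no window passed, with 4 to 12 at an unadjusted p under 0.05. Without W8 heart replicate 2 the ligands' share in heart was thus near the background, and the 6 lower windows in liver stood beside 3.26% of all genes called lower. The share of all genes called without W8 heart replicate 1 is not given here, so its counts cannot be set against the background.

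All 19 WNT windows had a lower fitted value in P1 liver than in ESC and 17 of 19 in P1 heart, with family medians of -1.42 and -1.77. The Fgf family had medians of -1.12 and -0.69, with 15 of 18 windows below 0 in each tissue. Bmp windows had medians of 0.10 in liver and 0.19 in heart. Under median centring and quantile normalization of the libraries the WNT median stayed between -2.02 and -1.69 in both tissues.

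CpG number ordered the windows weakly. Over the 34 ligands with 1 promoter entry, Spearman's rho between CpG sites and window FPKM was 0.13 and 0.16 in ESC and ran from -0.39 to 0.12 over the 10 tissue libraries, while over the 7689 genes it was -0.12 and -0.14 in ESC and 0.03 to 0.16 in the tissues. These are descriptions across genes, which share library, depth and base composition. For gene bodies in ESC the ligands' rho was 0.54 and 0.56, where all genes gave 0.10 and 0.11. Over the 10 tissue libraries the bodies' rho ran from 0.07 to 0.39 in the ligands and from 0.17 to 0.30 over all genes. The 18 ligands with at least 15 sites had median body levels of 1.14 and 1.12 FPKM in ESC and the other 16 had 0.622 and 0.514. In P1 liver the same 2 sets of bodies stood at 0.666 and 0.579 against 0.416 and 0.595.

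Over gene bodies, several WNT genes were again highest in ESC. In 14 of the 55 bodies (25.5%) both ESC libraries exceeded all 10 tissue libraries, against 16.9% of all genes, and 9 of the 14 were WNT genes (Wnt1, Wnt3, Wnt3a, Wnt7b, Wnt8a, Wnt9a, Wnt9b, Wnt10a and Wnt10b). The others were Fgf5, Fgf8, Fgf10, Fgf15 and Gdf5. The number was 17 without W8 heart replicate 2 (30.9%, against 18.5%). Only Bmp1 lay below all tissue libraries (1.82%, against 4.43% of all genes).

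The test of P1 heart against ESC called 6 ligand bodies lower and 0 higher (limma, 12.7% of all genes called; 5.6% higher and 7.1% lower), so the lower calls were near the background in number. Wnt3a held 1.36 and 1.43 FPKM in ESC, against 0.636 and 0.453 in P1 heart, and its log2 difference was -1.27 ± 0.23 SE (adjusted p = 0.0206). Wnt3 held 1.48 and 1.38 in ESC and 0.845 and 0.595 in P1 heart (-0.94 ± 0.23, adjusted p = 0.0415). Wnt7b held 1.73 and 1.65 in ESC and 1.04 and 0.748 in P1 heart (-0.88 ± 0.22, adjusted p = 0.0462). None of these 3 overlapped between the groups. Gdf5 had 3.81 and 3.23 in ESC, the highest ligand body of both ESC libraries, and 0.335 and 1.18 in P1 heart on 4 reads in all (-2.32 ± 0.51, adjusted p = 0.0333). Wnt10a, a ligand of skin and teeth, had 1.77 and 1.04 in ESC and 0.295 and 0 in P1 heart, on 4 and 0 reads there (-3.11 ± 0.80, adjusted p = 0.0476 in limma). Fgf14, a partner of sodium channels, was low throughout, at 0.15 and 0.144 in ESC and 0.0732 and 0.0635 in P1 heart (-0.63 ± 0.16, adjusted p = 0.0441). The outermost values above 0, those of Fgf16 (2.15 ± 0.91) and Bmp10 (1.94 ± 1.23), did not pass.

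P1 heart against ESC gave 20 calls without W8 heart replicate 2 (33.1% of all genes; 13.6% higher and 19.5% lower), which kept those 6. With 9 higher and 11 lower among the 55, the ligand calls were near the background in number in both directions. The 9 higher bodies were Tgfb2 (1.32), Fgf16 (2.15), Fgf17 (1.39), Fgf9 (0.87), Fgf13 (0.78), Fgf7 (0.75), Fgf2 (0.66), Bmp5 (0.53) and Bmp6 (0.52). Tgfb2, a regulator of heart valve formation, had 1.68 and 1.36 FPKM in P1 heart and 0.571 and 0.553 in ESC. The heart growth factors Fgf9 and Fgf16 stood at 0.888 and 0.834, and at 0.725 and 1.49, in P1 heart, against 0.474 and 0.406, and 0.115 and 0.262, in ESC. The P1 heart values of these 3 genes did not overlap those of ESC. The further lower calls were Wnt1 (-3.94), Fgf15 (-3.05), Wnt8b (-0.96), Wnt8a (-0.88) and Wnt9b (-0.68). In P1 heart the Wnt1 body held 1 and 0 reads and the Fgf15 body 0 and 1, so the size of both differences is uncertain.

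The count of 6 depended on single libraries and on scaling. It was 20 without either W8 heart library, 2 without P1 heart replicate 1, 1 without either P1 liver library, and 0 without P1 heart replicate 2, either ESC library or either W8 liver library (11 to 17 at an unadjusted p under 0.05 in limma). Median centring gave 7 higher and 3 lower, and quantile normalization 8 higher and 5 lower, as against 0 and 6. Over all genes median centring turned 755 higher and 958 lower into 1521 and 669, and it moved the median of all genes from -0.13 to 0.06. Wnt3 (-0.75), Wnt7b (-0.69) and Fgf14 (-0.45) did not pass after centring, and the WNT median was -0.42 as deposited and -0.23 after centring. For quantile normalization, and for leaving out a library other than W8 heart replicate 2, the share of all genes called is not given here. Those counts cannot be set against the background.

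P1 liver against ESC gave 8 lower and 2 higher bodies (limma, 15.4% of all genes called; 10.4% higher and 5.05% lower). Fgf6, a muscle growth factor, held 1.87 and 1.72 FPKM in ESC and 0.292 and 0.235 in P1 liver (log2 difference -2.47 ± 0.27 SE, adjusted p = 0.00719). Wnt7b held 0.449 and 0.481 in P1 liver (-1.71 ± 0.22, adjusted p = 0.00888), and Wnt3 held 0.401 and 0.565 (-1.45 ± 0.23, adjusted p = 0.0123). The liver values of these genes lay below ESC without overlap. Wnt7a (-1.54), Fgf18 (-1.08), Wnt3a (-1.06), Fgf14 (-0.62) and Fgf12 (-0.60) were also lower. Gdf3 held 0.185 and 0.564 in ESC and 1.95 and 2.51 in P1 liver (2.49 ± 0.50, adjusted p = 0.023), and the protease gene Bmp1 held 0.703 and 0.583 in ESC and 1.85 and 1.5 in P1 liver (1.28 ± 0.17, adjusted p = 0.00902). P1 liver was above ESC in both genes. Both comparisons use the same ESC libraries, and so Wnt3 at -0.94 in heart and -1.45 in liver, or Wnt7b at -0.88 and -1.71, are not independent observations.

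In P1 liver against ESC the count of 10 became 22 without either W8 heart library (3 higher and 19 lower without replicate 2, 33.6% of all genes called and 20.8% called higher; all 10 kept). It was 8 without either P1 heart library, 4 without P1 liver replicate 2 or either W8 liver library, and 0 without P1 liver replicate 1 or either ESC library (11 to 14 at an unadjusted p under 0.05 in limma). With median centring 2 were higher and 9 lower. For centring, and for leaving out a library other than W8 heart replicate 2, the share of all genes called is not given here. Those counts cannot be set against the background.

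**Figure D3:**
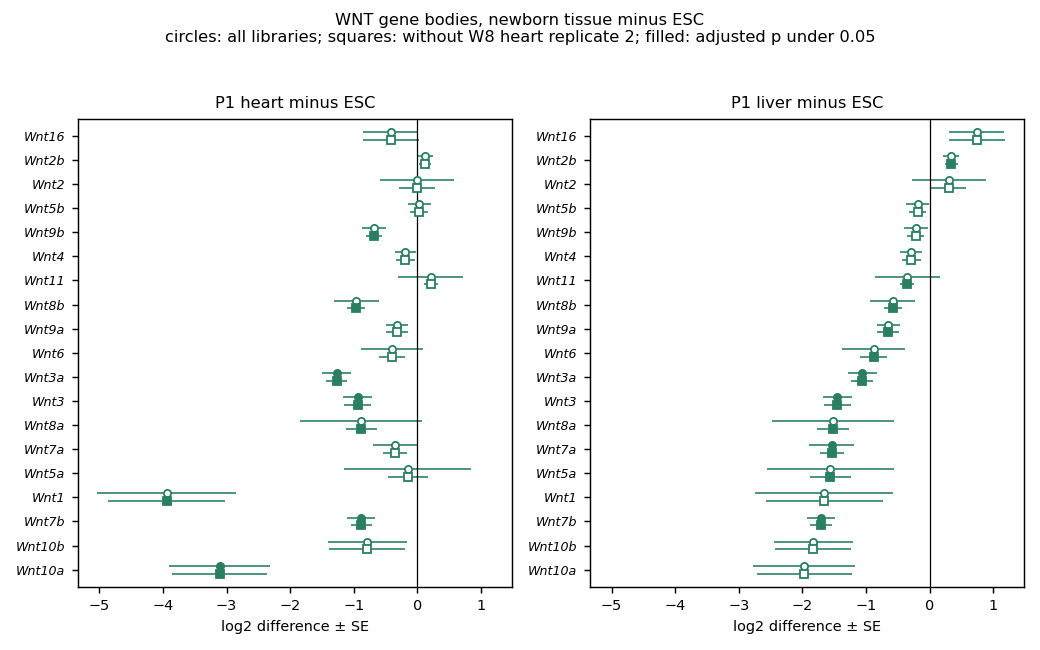
Log2 difference in body FPKM, with its standard error, of the 19 WNT genes between newborn tissue and ESC (left heart, right liver); circles use all libraries, squares leave out W8 heart replicate 2, and filled symbols have an adjusted p under 0.05. Wnt3, Wnt3a and Wnt7b lie below 0 with filled circles in both panels.

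Heart and liver were then compared over the 3 ages together. In gene bodies 9 ligands passed (limma, 11.7% of all genes called). Of these 7 were higher in heart, as were 5.26% of all genes (709), and 2 were lower, as were 6.42% of all genes (866). The fitted difference was above 0 in 37 of the 55, with a median of 0.32, against -0.10 over all genes. By family 3 of 18 Fgf, 2 of 19 Wnt, 1 of 8 Bmp and 1 of 3 Tgfb genes were higher in heart, and 1 Bmp and 1 of 7 Gdf genes were lower.

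Among the FGF ligands, Fgf6 differed most. It held 0.65 FPKM in E14 heart, 1.86 and 1.03 in P1 heart and 0.77 and 0.854 in W8 heart, and 0.43, 0.292 and 0.235, and 0.095 and 0.103 in liver of the same ages. Every heart library was above every liver library, and the log2 difference was 1.66 ± 0.18 SE (adjusted p = 0.00721). Fgf18, a signal for cartilage and lung, held 0.867, 1.74 and 1.42, and 0.808 and 0.439 in heart and 0.392, 0.525 and 0.462, and 0.298 and 0.242 in liver (1.17 ± 0.18, adjusted p = 0.0128). Its heart libraries overlapped the liver ones only through W8 heart replicate 2. Fgf7, the keratinocyte growth factor, held 0.45 to 0.749 in heart and 0.206 to 0.433 in liver without overlap (0.63 ± 0.15, adjusted p = 0.0407). Fgf18 passed in 8 and Fgf6 in 10 of the 10 fits that left out 1 library, but Fgf7 in 2. Of the ligands of other families called over the 3 ages, Bmp1 passed in 6 of these fits, Gdf3 in 4 and Wnt7b in 3. Bmp6, Tgfb2 and Wnt9a passed in 2 each.

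Of the Fgf genes with known heart roles, Fgf9 had 0.654, 0.888 and 0.834, and 0.755 and 0.23 FPKM in heart and 0.211 to 0.402 in liver, so that the shallow library alone overlapped. Its difference did not pass with all libraries (0.82 ± 0.28, adjusted p = 0.105) and passed without W8 heart replicate 2 (1.06 ± 0.10). Fgf16 behaved alike, with 0.422 to 1.49 in heart apart from 0 in W8 heart replicate 2 and 0.142 to 0.363 in liver (0.62 ± 0.61 with all libraries, 1.13 ± 0.29 without that one, where it passed). Fgf10, a signal of the second heart field, held 0.104 to 0.234 in heart and 0.0638 to 0.219 in liver (0.20 ± 0.17, adjusted p = 0.473), and it passed without W8 heart replicate 2 (0.32 ± 0.10). Fgf1 held 0.796 to 1.38 in heart and 0.465 to 1.38 in liver, Fgf2 0.59 to 0.939 and 0.37 to 0.662, Fgf8 0.449 to 1.53 and 0.3 to 0.516, and Fgf4 0 to 0.845 and 0 to 0.207. None of these 4 passed in this comparison.

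Tgfb2 was the TGFB gene that passed. It held 1.05 in E14 heart, 1.68 and 1.36 in P1 heart and 1.27 and 0.495 in W8 heart, and 0.466, 0.727 and 0.688, and 0.441 and 0.45 FPKM in liver. Apart from W8 heart replicate 2 every heart library was above every liver library (0.94 ± 0.24, adjusted p = 0.0498; 1.15 ± 0.09 without that library). Tgfb3 held 0.665 to 1.2 in heart and 0.484 to 0.664 in liver and did not pass (0.47 ± 0.19), although its libraries did not overlap. Tgfb1, widely made by blood and stromal cells, held 0.625 to 1.52 in heart and 0.804 to 2.67 in liver (-0.12 ± 0.20).

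Bmp6, which in liver comes from endothelium and controls iron through hepcidin, had more 5hmC in heart: 0.562 to 0.964 FPKM against 0.46 to 0.705 in liver (0.49 ± 0.10, adjusted p = 0.0313), with overlap. Bmp7 missed the threshold with all libraries (0.66 ± 0.18, adjusted p = 0.0571) and passed without W8 heart replicate 2 (0.79 ± 0.12). Bmp1 was lower in heart, at 0.796 to 0.988 against 0.754 in E14 liver, 1.85 and 1.5 in P1 liver and 2.11 and 1.86 in W8 liver (-0.59 ± 0.11, adjusted p = 0.0237). For this gene the E14 libraries went the other way from the later ages. Bmp10, the ligand of heart trabeculae, had 0.397 in E14 heart, 1.79 and 0.788 in P1 heart, 1.13 and 0 in W8 heart, and 0.191 to 0.72 in liver, and did not pass (0.08 ± 0.82 with all libraries). Its body of 3.51 kb held 0 to 36.8 reads per library. Bmp2 (-0.17 ± 0.56) and Bmp4 (-0.72 ± 0.60) did not pass either.

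The pair of genes lowest in heart were Gdf3 and Gdf9. Gdf3 had 1.07 in E14 heart, 0.292 and 0.343 in P1 heart and 0.461 and 1.13 in W8 heart, and 1.44, 1.95 and 2.51, and 2.14 and 1.57 FPKM in liver. No heart library reached the lowest liver library, and the difference was -1.40 ± 0.34 (adjusted p = 0.0423). Its body of 2.69 kb held only 1 read in each P1 heart library. Gdf9 was also without overlap, with 0 to 1.21 in heart and 1.34 to 2.68 in liver, but passed only without W8 heart replicate 2 (-1.52 ± 0.64 with all libraries, -0.96 ± 0.26 without it). Gdf2 (BMP9), which liver secretes into the blood, showed no separation, with 0.443 to 2.45 in heart and 0.269 to 1.26 in liver (0.48 ± 0.47). Gdf15, a stress-induced hormone, rested on 0 to 26 reads per library and its difference was -0.61 ± 1.39.

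Among WNT genes, Wnt7b and Wnt9a, a ligand that heart valves express, were higher in heart. Wnt7b held 0.503 to 1.04 FPKM in heart and 0.336 to 0.481 in liver without overlap (0.65 ± 0.15, adjusted p = 0.0366). Wnt9a held 0.624 to 0.988 in heart and 0.369 to 0.809 in liver (0.48 ± 0.12, adjusted p = 0.0478), with overlap. Wnt5a, a noncanonical ligand of the second heart field, held 0.536 to 0.91 in heart apart from 0 in W8 heart replicate 2, and 0.152 to 0.326 in liver. It passed without that library (1.18 ± 0.23) and not with it (0.59 ± 0.67). Wnt11 did likewise (0.75 ± 0.08 without, 0.44 ± 0.34 with). Wnt9b, the central-vein signal of the liver lobule, held 0.623 to 1.2 in heart and 0.573 to 1.28 in liver and did not pass (-0.18 ± 0.13), nor did Wnt2 (-0.34 ± 0.38), the other WNT of liver endothelium.

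**Figure D4:**
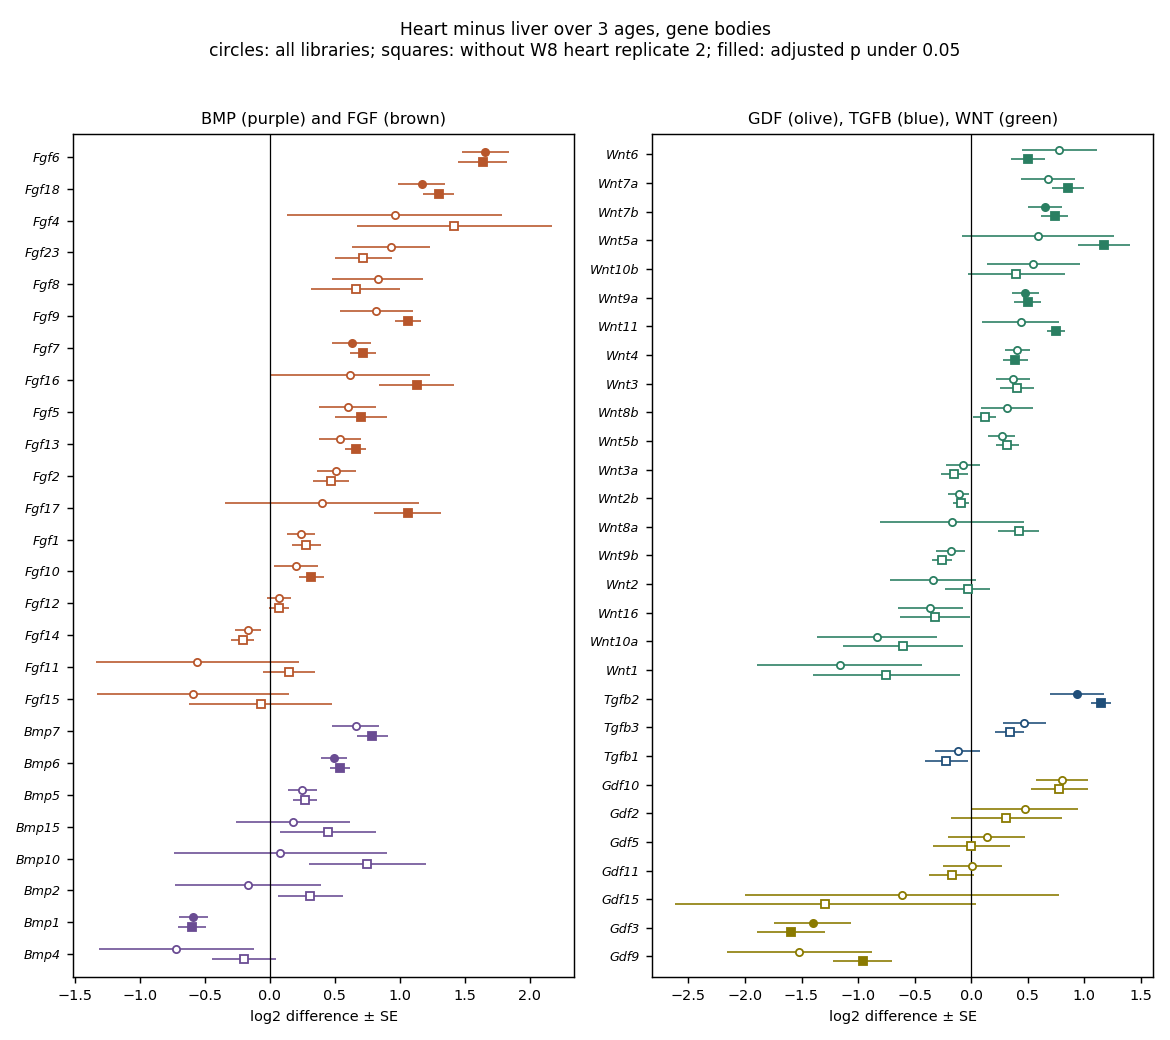
Log2 difference in body FPKM between heart and liver over 3 ages, with its standard error, for all 55 ligand genes by family; circles use all libraries, squares leave out W8 heart replicate 2, and filled symbols have an adjusted p under 0.05. Filled circles stand at 1.66 for Fgf6 and 1.17 for Fgf18, and below 0 only for Bmp1 and Gdf3.

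In 4 of the 55 bodies (Fgf6, Fgf7, Tgfb3 and Wnt7b; 7.27%) all 5 heart libraries exceeded all 5 liver libraries, against 0.942% of all genes. This held for 11 without W8 heart replicate 2 (20%, against 3.8%), adding Bmp6, Fgf9, Fgf16, Fgf18, Tgfb2, Wnt5a and Wnt7a. The reverse held for Gdf3 and Gdf9 (3.64%, against 2.25%). The count of 9 calls over the 3 ages became 22 without W8 heart replicate 2 (19 higher and 3 lower, 29.4% of all genes), which kept all 9. It was 23 without W8 heart replicate 1, which leaves the shallow library as the only W8 heart. It was 4 without either ESC library or P1 heart replicate 2, 3 without P1 heart replicate 1 or P1 liver replicate 2, 2 without P1 liver replicate 1 and 1 without either W8 liver library. Median centring gave 11 higher and 1 lower and quantile normalization 16 and 2, and over all genes centring turned 709 higher and 866 lower into 1115 and 661, moving the median of all genes from -0.10 to -0.02. For quantile normalization, and for leaving out a library other than W8 heart replicate 2, the share of all genes called is not given here. Those counts cannot be set against the background.

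Markers of some other cell types also differed in this comparison. With all libraries, 5.26% of all genes were higher in heart and 6.42% lower. Of 7 endothelial genes 5 were higher in heart (Kdr, Emcn, Flt1, Cdh5 and Tek), and their summed body FPKM was 6.63 to 7.22 in P1 heart and 5.48 to 6.54 in P1 liver, 5.41 to 5.49 in W8 heart and 3.5 in W8 liver, and 6.81 in E14 heart and 3.41 in E14 liver; none was at 0. Of 8 fibroblast and smooth muscle genes 2 were higher (Col1a1 and Pdgfra), with sums of 3.74 to 6.53 in heart and 3.7 to 6.37 in liver, and Tcf21 was at 0 in libraries of both tissues. Of 8 stellate and bile duct genes 2 were higher in heart (Des and Ngfr), and of 6 blood genes none passed. The part of these cells in the ligand values was not tested.

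At P1 alone, Fgf6 (log2 difference 2.12 ± 0.27 SE, adjusted p = 0.0351) and Fgf18 (1.54 ± 0.27, adjusted p = 0.0461) were the 2 ligand bodies that passed (limma, 2.28% of all genes called; 0.349% higher and 1.93% lower). At the low end Gdf3 (-2.55 ± 0.50, adjusted p = 0.0549) and Wnt1 (-2.28 ± 1.09, adjusted p = 0.241) did not pass. Without W8 heart replicate 2 there were 17 (22.4% of all genes), 14 higher in heart (5.9% of all genes), 7 of them Fgf genes, and 3 lower (Bmp1, Gdf3 and Wnt9b). The count was also 17 without W8 heart replicate 1, without P1 heart replicate 1 there was 1, and without any other single library there were 0 (10 to 14 at an unadjusted p under 0.05 in limma). Over all genes 47 were higher and 260 lower, and after median centring 95 and 52, with the median of all genes moving from -0.23 to 0.02. The share of all genes called is not given here for leaving out a library other than W8 heart replicate 2. Those counts cannot be set against the background.

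At W8, 13 ligand bodies were higher and 3 lower in heart (limma, 30.8% of all genes called; 9.49% higher and 21.3% lower). Fgf6 (2.35 ± 0.27, adjusted p = 0.0043) and Fgf23, a bone hormone that lies beside Fgf6 (2.22 ± 0.45, adjusted p = 0.0146), differed most. They were followed by Gdf5 (1.63), Wnt6 (1.62), Fgf5 (1.53), Wnt8b (1.34), Gdf10 (1.19), Fgf7 (1.13), Fgf18 (0.97), Bmp7 (0.92), Wnt3 (0.87), Wnt7b (0.82) and Bmp5 (0.62). Bmp1 (-1.20), Fgf1 (-0.58) and Wnt2b (-0.46) were lower. W8 liver was low for most of these genes: Fgf5 held 0.0432 and 0.136 FPKM there and 0.495 and 0.29 in W8 heart, and Fgf7 0.229 and 0.206 there and 0.702 and 0.45 in heart. The 16 calls among 55 ligands were near the background in number, with more of them higher in heart and fewer lower than in all genes (1280 higher and 2871 lower).

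The W8 comparison without W8 heart replicate 2 called 19 (17 higher and 2 lower, 39.8% of all genes; 26.9% lower), of which 11 were among the 16. Gdf5, Wnt6, Gdf10, Fgf1 and Wnt2b were lost, and in that library Gdf5 rested on 2 reads and Wnt6 on 6.93. Gained were Fgf9, Fgf10, Fgf13, Tgfb2, Wnt5a, Wnt7a and Wnt11, all higher in heart, and Gdf3, lower. Wnt5a and Wnt11 changed sign, from -0.45 to 1.33 and from -0.18 to 0.74. The count was 23 without W8 heart replicate 1, 15 without either P1 heart library, 10 without either P1 liver library, 5 without either ESC library and 0 without either W8 liver library (11 to 14 at an unadjusted p under 0.05 in limma). Median centring gave 20 higher and 1 lower and quantile normalization 18 and 1; over all genes centring gave 2212 higher and 1357 lower and moved the median of all genes from -0.32 to -0.01. Fgf1 and Wnt2b did not pass under either scaling. For quantile normalization, and for leaving out a library other than W8 heart replicate 2, the share of all genes called is not given here. Those counts cannot be set against the background.

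**Figure D5:**
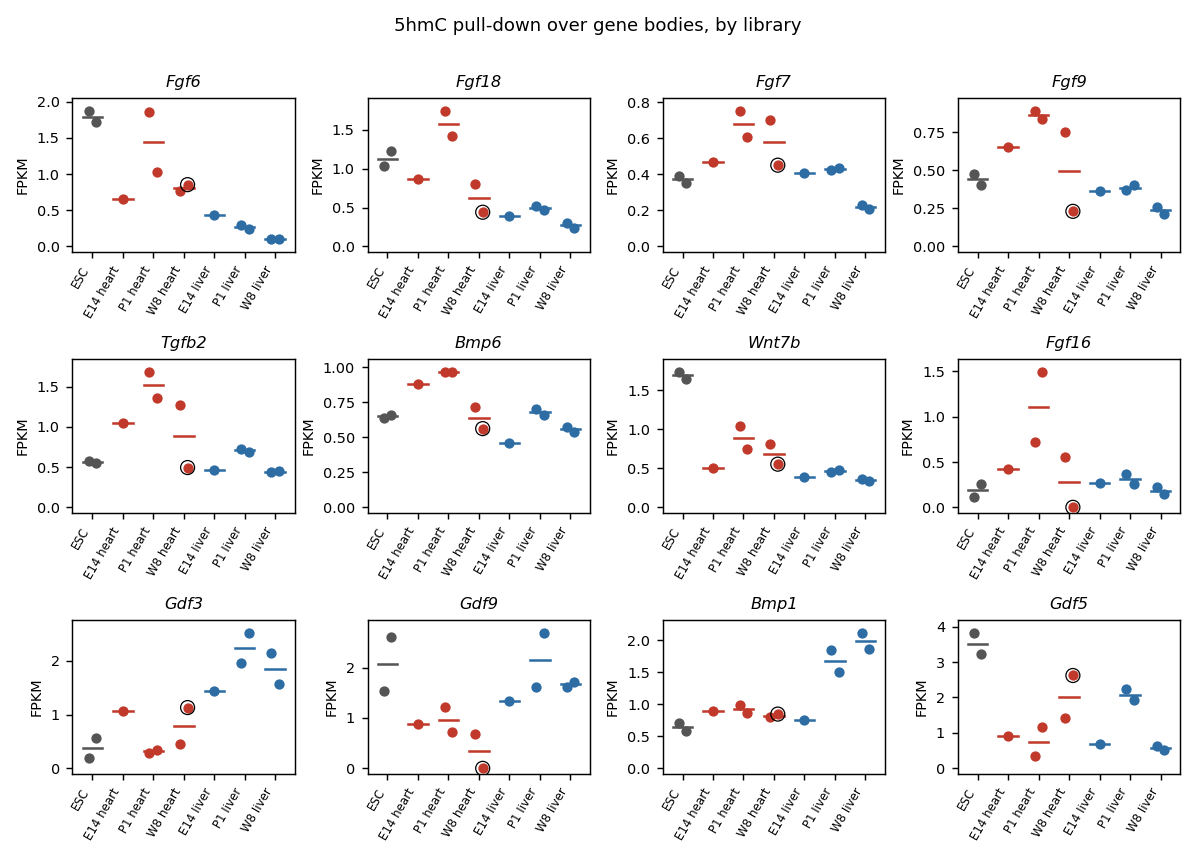
FPKM of the gene body in each library (points) and group mean (bars) for 12 ligand genes, with ESC in grey, heart in red and liver in blue; the ringed point is the shallow W8 heart replicate 2. For Fgf6 every heart library lies above every liver library, for Gdf3 and Gdf9 below, and for Fgf9 and Tgfb2 only the ringed point overlaps liver.

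At E14, with 1 library per tissue and no test, 38 of the 55 bodies were higher in heart, with a median log2 difference of 0.34 against 0.25 over all genes. Past a log2 difference of 1 were Bmp4 (1.18 FPKM in heart and 0.462 in liver), Fgf1 (1.13 and 0.465), Fgf17 (0.929 and 0.379), Fgf18 (0.867 and 0.392) and Tgfb2 (1.05 and 0.466), where 7.96% of all genes were; none of the 55 was lower by as much, where 2.53% of all genes were. Fgf18 and Tgfb2 thus had the same direction at each age, whereas Bmp4, which is needed for mesoderm, was 0.305 and 0.716 in P1 heart and 1.02 and 1.09 in P1 liver.

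The change of the heart-liver difference from P1 to W8 was called for 0 of the 55 bodies (limma, 4 at an unadjusted p under 0.05; 0.0148% of all genes called), also without W8 heart replicate 2 (8 at an unadjusted p under 0.05). The outermost changes were those of Gdf5 (3.21 ± 0.72) and Gdf2 (2.11 ± 1.00) above 0 and of Wnt8a (-2.72 ± 1.36) and Fgf17 (-1.90 ± 1.59) below 0. Without W8 heart replicate 1, where the shallow library stands alone, 19 passed, beside 29.1% of all genes. Read format goes with age here too. A format effect alike in both tissues would cancel in this comparison, but one that differs between the tissues cannot be told apart from age.

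For promoter windows, no ligand was called between heart and liver with all libraries, but this test had little power. In the simulated data described below, 0 of 100 windows changed by a log2 of 2 at P1 were recovered. The absence of calls therefore does not show that the windows are alike. The limma test called 0 of 55 over the 3 ages (3 at an unadjusted p under 0.05), 0 at P1 (2) and 0 at W8 (10), while 0%, 0.0074% and 0.0074% of all genes were called. The outermost fitted differences over the 3 ages were those of Fgf6 (1.59 ± 0.48) and Fgf5 (1.11 ± 0.56) above 0 and of Tgfb1 (-1.38 ± 0.65) and Wnt1 (-1.13 ± 0.58) below 0, and none of them passed. At P1 these were Wnt7b (1.89 ± 0.99) and Wnt2 (1.74 ± 1.04), and Fgf18 (-2.22 ± 1.01) and Wnt10b (-2.22 ± 1.05), and at W8 Fgf6 (3.11 ± 0.72) and Fgf23 (2.48 ± 0.93), and Wnt9b (-2.63 ± 0.97) and Bmp4 (-2.29 ± 1.28). No ligand window separated all heart from all liver libraries, where 0.474% of all genes were higher and 2.41% lower. Fgf7 alone did so without W8 heart replicate 2 (1.82%, against 1.49%), with 0.789, 1.77 and 1.38, and 1.75 FPKM in heart and 0.216 to 0.786 in liver. In each of these 3 comparisons the count was also 0 without W8 heart replicate 2 (8, 5 and 7 at an unadjusted p under 0.05 in limma). Without W8 heart replicate 1, 6 windows passed over the 3 ages and 23 at W8, beside 17.2% and 39.3% of all genes. The median ligand window held 0 to 19.1 reads per library.

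In the comparison with ESC the bodies of several receptor genes were higher in the newborn tissues (limma, all libraries; 5.6% of all genes were called higher in P1 heart and 10.4% in P1 liver). Of 15 WNT receptors and co-receptors measured, 5 were higher than ESC in P1 heart, led by Fzd5 (3.70), Fzd7 (1.70) and Ror1 (1.56), and 5 in P1 liver, led by Fzd5 (4.22), Fzd7 (2.20) and Fzd4 (1.54); none was lower. The medians were 0.54 and 0.66 log2, against -0.13 and 0.10 over all genes. In ESC replicate 1, 1 of these 15 bodies was at 0. The FPKM and reads of single receptor genes are not given here. Of 13 BMP and TGFB receptors 5 and 6 were higher and none lower, with Bmpr1a at 1.49 and 1.18 and Tgfbr3 at 1.13 and 1.20. Of 6 SMAD genes 2 and 3 were higher, Smad1 in both (0.70 and 0.69). Of 7 FGF receptors and co-receptors 2 were lower in heart (Klb at -1.81 and Fgfr4 at -1.04) and none passed in liver (2 at an unadjusted p under 0.05). Of 19 target and feedback genes 1 was higher in heart (Nkd1 at 1.17) and 4 in liver, led by Dusp6 (2.17), an inhibitor of ERK signalling. Of 19 secreted BMP and TGFB inhibitors and latency proteins 1 was higher in each tissue. The WNT inhibitor Notum was lower in both tissues (-1.16 and -1.61), the only one of 7 secreted WNT inhibitors that passed.

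Leaving out W8 heart replicate 2 raised most of these counts, beside 13.6% of all genes called higher and 19.5% lower in P1 heart and 20.8% and 12.8% in P1 liver. The WNT receptors then had 8 higher and 1 lower in heart and 8 and 3 in liver, the BMP and TGFB receptors 6 and 7 higher and none lower, and the SMAD genes 3 and 5 higher and none lower. FGF receptors had 2 lower in each tissue. WNT inhibitors had 2 higher and 2 lower in heart and 2 lower in liver, BMP and TGFB inhibitors 4 higher in heart and 3 higher and 1 lower in liver, and target genes 4 higher and 3 lower in heart and 7 and 3 in liver.

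Between heart and liver over 3 ages few pathway genes passed with all libraries, where 5.26% of all genes were higher and 6.42% lower. Fgfr1, the main FGF receptor of mesenchyme, was higher in heart (0.61 ± 0.09) and Klb, the co-receptor through which liver senses FGF15, was lower (-1.34 ± 0.18). Ror2 (1.20 ± 0.27) and Lgr6 (0.99 ± 0.21) were the 2 of 15 WNT receptors that passed. In limma 0 of 13 BMP and TGFB receptors, 0 of 7 WNT inhibitors and 0 of 6 SMAD genes passed (1, 0 and 1 at an unadjusted p under 0.05). Of 19 secreted BMP and TGFB inhibitors and latency proteins 3 were higher in heart, Nbl1 (1.06), Fstl1 (0.91) and Ltbp1 (0.77), which tethers latent TGFB to the matrix, and 1 was lower. Of 19 target and feedback genes Nkd1 was higher (0.78) and Rnf43 lower (-1.23), both feedback inhibitors of WNT signalling. Without W8 heart replicate 2, where 12.5% of all genes were higher and 16.9% lower, 4 WNT receptors were higher and 1 lower, 2 BMP and TGFB receptors (Acvr2b at 0.40 and Tgfbr3 at 0.30) and 2 WNT inhibitors (Dkk3 at 0.69 and Sfrp1 at 0.61) were higher, and 1 FGF receptor was higher and 2 were lower. BMP and TGFB inhibitors then had 5 higher and 1 lower, target genes 3 and 1, and SMAD genes none (0 at an unadjusted p under 0.05).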

How the data were processed

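Pulled-down 5hmC fragments of 12 libraries were sequenced and aligned to mm9 with Bowtie2, per the submitters' processing notes, with settings not given in the sources used here. The deposited tables hold FPKM values that the authors computed per gene body and per promoter window of 4000 bp. How genes were annotated and whether duplicates were removed is not given in the sources used here. Of 13581 genes, 23 had no coordinates and 9 had a body of 0 or negative length, which left 13549 bodies and 13558 windows.

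Groups were taken from the labels. Values were tested as log2(FPKM + pseudocount), which makes the fold change of a low gene too small. The pseudocount, the median non-zero value divided by 10, was 0.0746 for bodies and 0.0723 for windows. Genes with a mean FPKM under 0.0809 (bodies) or 0.0739 (windows) were left out, which kept 13484 and 13513 genes and all 55 ligands. A model with 7 group means was fitted to all 12 libraries in limma 3.58.1 (R 4.3.3) with a mean-variance trend, which left 5 residual degrees of freedom. Benjamini-Hochberg adjustment ran over all genes kept, and calls have an adjusted p under 0.05. Single E14 libraries were taken to vary like the other groups. Tables and figures were made in Python 3.11.15 with pandas 2.3.3, numpy 2.4.6, scipy 1.17.1 and matplotlib 3.10.9.

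Low FPKM values are multiples of what 1 read is worth, which gave the reads per gene. In the 6 single-end libraries 2 step sizes occur at a ratio of 1.03, so read numbers there need not be whole. On simulated data for heart against liver at P1 over 13484 bodies, 26 of 100 genes changed by a log2 of 1 and 65 of 100 changed by 2 were recovered, and for windows 0 of 100 at either size. Each simulated gene had the same spread in all 12 libraries. The deviations of W8 heart replicate 2 from its group mean were left out, but that mean included replicate 2. The deviations of W8 heart replicate 1 from the mean therefore still carry noise of replicate 2. The recovery can differ in the real fits. Genes were named if they passed (up to 12 per direction), as the 2 outermost per direction where fewer than 3 passed, or from a set with known roles. The members, the role, pathway and marker lists and this rule were chosen with earlier results of these data known. Alternatives were other pseudocounts, no filter, median centring, quantile normalization, a replicate block, a fit of only the groups compared and leaving out each replicate. The result of 1 pathway gene is not reported here.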

Additional observations from a re-analysis of the deposited data

Results flagged for a closer look

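For 2 gene bodies the heart-liver difference turned from P1 to W8, and the turn had an unadjusted p under 0.05 but did not pass over all genes in limma. Gdf5 had a log2 difference of -1.58 at P1 and 1.63 at W8, a change of 3.21 ± 0.72 (SE; adjusted p = 0.107), and its body held 1 and 3 reads in P1 heart and 2 reads in W8 heart replicate 2. Wnt8b had -0.39 at P1 and 1.34 at W8, a change of 1.73 ± 0.50 (adjusted p = 0.155).

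For 4 promoter windows every P1 library and every W8 library moved in opposite ways between heart and liver, and the difference was not tested. The change in the log2 difference was -3.48 for Gdf11 (1.51 at P1, -1.97 at W8), -2.61 for Fgf15 (1.15, -1.46), -2.32 for Wnt3a (1.49, -0.83) and -0.79 for Gdf9 (0.46, -0.33). Each of these windows held few reads, and Wnt3a was at 0 in both W8 heart libraries.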

How the results depend on the processing

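The number of ligand bodies that passed ranged, over fits that left out 1 library each, from 1 to 23 over the 3 ages, 0 to 17 at P1, 0 to 23 at W8, 0 to 20 for P1 heart against ESC, 0 to 22 for P1 liver against ESC and 0 to 19 for the change from P1 to W8. For promoter windows it ranged from 0 to 6 over the 3 ages, 0 to 23 at W8, 0 to 6 for P1 heart against ESC and 0 to 8 for P1 liver against ESC, and was 0 throughout at P1. The high values came without a W8 heart library. Where the share of all genes called is given for these high values, it was raised as well.

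Quantile normalization gave 18 bodies over the 3 ages, 13 for P1 heart against ESC, and 1, 3, 5 and 13 windows over the 3 ages, at W8, for P1 heart and for P1 liver against ESC. Median centring gave 10 bodies for P1 heart against ESC. A pseudocount of the median over 2 gave 4 bodies at P1 and 4 and 8 windows for P1 heart and P1 liver against ESC, and one of the median over 100 gave 1 body at P1 and 2 for P1 heart against ESC. A fit of only the groups compared gave 4 bodies over the 3 ages, 0 at P1 (20 at an unadjusted p under 0.05 in limma), 0 at W8 (16), 20 for P1 liver against ESC and 9 windows for P1 liver against ESC. Without the filter on low values all 117 gene results kept their call. The shares of all genes called are not given for the counts in this paragraph or for the replicate block below. Those counts can therefore not be read as particular to the ligands.

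With replicate number as a block the counts were 9, 0, 12, 4 and 9 bodies, over the 3 ages, at P1 (16 at an unadjusted p under 0.05 in limma), at W8 and for P1 heart and P1 liver against ESC. Deviations of same-numbered libraries correlated at -0.01 to 0.04 over 13484 genes. These deviations also hold counting noise, so they cannot settle whether same-numbered libraries share an animal or a preparation. The labels do not say.

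Signs turned for Fgf17 over the 3 ages (-0.04 with the median over 100, -0.27 and 1.06 without W8 heart replicates 1 and 2), Wnt5a over the 3 ages (-0.01 and 1.18 without them) and Fgf9 at W8 (-0.02 and 1.42 without them). At W8 Wnt11 turned to 0.14 with centring, 0.30 with quantile normalization and 0.74 without W8 heart replicate 2 (-1.11 without replicate 1), and Wnt5a to 0.03 with the median over 2, 0.31 with quantile normalization and 1.33 without replicate 2 (-2.24 without replicate 1). Wnt5a had no read in W8 heart replicate 2; other causes were not tested. Few reads per window limit the promoter results.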
